A study of Oryza sativa with 2 samples.

Results

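EL2 (gene LOC4331332, on chromosome 3) is a rice gene for a protein that inhibits cyclin-dependent kinases. It was represented by 1 probe among the 22574 probes measured on both arrays of the study, and by 1 of the 15798 genes that could be tied to a probe. The probe was found through the platform annotation, whose numbers had to be converted to those of the deposited values by the layout of the grid of spots, so every gene name given here rests on that conversion. The gene was chosen by its measured ratio of irradiated over control, the highest among genes with a name, so that ratio is given as a description and supports nothing further. Whole seedlings of rice (Oryza sativa), raised for 7 days on MS medium in a growth chamber, were exposed to carbon ion beams from the HIMAC accelerator for 2 h 35 min, and healthy seedlings that were not irradiated served as the control. No cultivar, dose or time of harvest is given in the sources used here. Total RNA of 1 irradiated and 1 control extract was hybridised to 2 arrays. The first array had irradiated RNA in the dye Cy5 and control RNA in Cy3, and the swapped array had the dyes exchanged. Both labels carry the same replicate number, so there was 1 replicate per group, no test between groups was possible, and no difference below has a replicate check.

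Cyclin-dependent kinases (CDKs) drive the plant cell cycle when they are bound by cyclins, and CDK inhibitors bind to these complexes and hold them back. Plants have a pair of inhibitor families, the Kip-related proteins (KRPs) and the SIAMESE family, named after an Arabidopsis gene that stops mitosis and starts endoreduplication in leaf hairs. EL2 belongs to the SIAMESE family and was first isolated from cultured rice cells as a gene that responds early to chitin fragments, the elicitors by which plants sense fungi.

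With the values read as Cy5 over Cy3, the EL2 transcript was far more abundant in irradiated than in control seedlings on both arrays. On the first array the deposited value was 1.82 on the log10 scale, which is a ratio of 865 to 13, or 66.5-fold, of Cy5 (irradiated) over Cy3 (control). On the swapped array it was -0.82, a ratio of 1185 to 7796 of Cy5 (control) over Cy3 (irradiated), or 6.58-fold for irradiated over control. The sign of the deposited value thus turned with the dyes, and irradiated RNA gave the higher signal on either array when the values were read as Cy5 over Cy3. Each array was then normalized by loess, a smooth curve of the log ratio on spot intensity, because the ratio of dyes climbed with brightness over all but the faintest spots. At the EL2 spot the curves of the first and the swapped array stood at 0.33 and 0.61 log10 units of Cy5 over Cy3, which act in opposite directions on irradiated over control. After normalization the log2 ratio of irradiated over control was 4.95 (30.8-fold) on the first array. The swapped array gave 4.74 (26.7-fold), so the arrays differed by 0.21. The mean was 4.84, or 28.7-fold, with a spread between arrays of 0.15 (SD, 2 arrays of 1 pair of extracts).

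**Figure D1:**
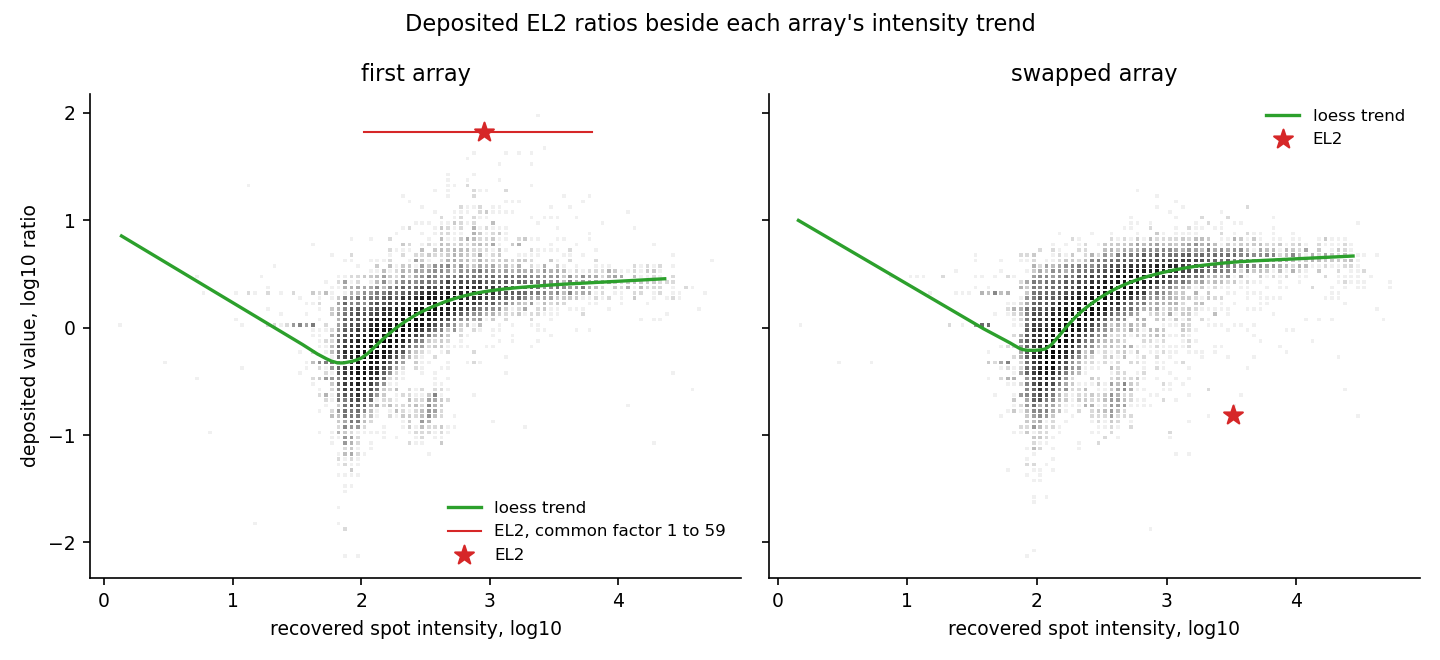
Deposited log10 ratios of Cy5 over Cy3 (vertical axis) against recovered spot intensity (log10, horizontal axis) for all probes (grey, darker where more probes lie), with the loess trend in green and EL2 in red. EL2 lies above the trend on the first array, at 1.82, and below it on the swapped array, at -0.82, and the red line on the first array spans the intensities that common factors of 1 to 59 would give.

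This direction rests on reading the values as Cy5 over Cy3, which was assumed, and is not certain. Neither labels nor file say which dye is the numerator, and if the values were Cy3 over Cy5, EL2 would stand at -4.84. If instead each column were irradiated over control, with no array turned, EL2 would be 66.5-fold higher in irradiated seedlings on the first array and 6.58-fold lower on the swapped array, with a mean log2 ratio of 0.10 after loess. After loess and turning, Pearson's r between the arrays was -0.27 across 22574 probes. It was 0.64 across the 2258 probes of the brightest decile, 0.60 in the next, and between -0.54 and -0.15 in the other 8, all across probes that share the same extracts and spots. The rank correlation (rho) was 0.32 in the brightest decile, 0.33 in the next, 0.13 in decile 8, and between -0.57 and -0.05 in the dimmer ones. The turned reading rests on the bright probes. These correlations are the same for Cy5 over Cy3 and for Cy3 over Cy5, so they bear on the turning and not on the direction.

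The spread between arrays has to be read beside the technical error of bright probes. EL2 fell in the brightest of 10 intensity classes, at place 1098 of 22574 by brightness. This place used a recovered first-array intensity of 900, which is uncertain. With the lowest value considered for that spot, 106, EL2 would be less bright, and its class was not worked out again. The comparisons with the brightest decile depend on this class. The part of the EL2 ratio that followed the dye, which is the arrays' difference divided equally between them, was 0.10 log2 units. In the brightest decile 38.1% of the probes had a smaller part, and the median was 0.14. The mean log2 ratios of probes in that decile ran from -2.09 to 5.52, with the middle at -0.00 and the 95th percentile at 1.26, and EL2 lay far above that percentile.

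The closeness of the arrays at EL2 depended on the intensity assigned to its spot on the first array. A ratio of 865 to 13 is a reduced fraction, and a common factor of the original whole-number signals is lost in it. The swapped array showed EL2 as a bright spot with signals of 7796 for irradiated and 1185 for control RNA, and 92.7% of the weight there lay on a factor of 1. On the first array the weight was spread widely, with 11.6% on a factor of 1 and its middle at a factor of 12, where the signals would be 10380 for irradiated and 156 for control RNA. With a factor of 1 the first-array ratio would be 6.93 and the mean of the arrays 5.84. With a factor of 34, at 95% of the weight, it would be 4.72, and with the largest factor tried, 59, it would be 4.67 and the mean 4.70. The control term of 13 lay far below 163, the median of the control terms on that array. Both are terms of reduced fractions and not signals, so the factor cannot be read from them.

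Normalization moved the single arrays apart or together, while EL2 stayed on the same side. With each array centred on its median, the first array gave 5.89 (59.2-fold) and the swapped array 3.39 (10.5-fold). With no centring at all it stood at 6.06 and 2.72. With loess on the reduced fractions it stood at 6.60 and 4.73. The means under these settings were 4.64, 4.39 and 5.66, and a wider loess span of 0.5 gave 4.86.

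**Figure D2:**
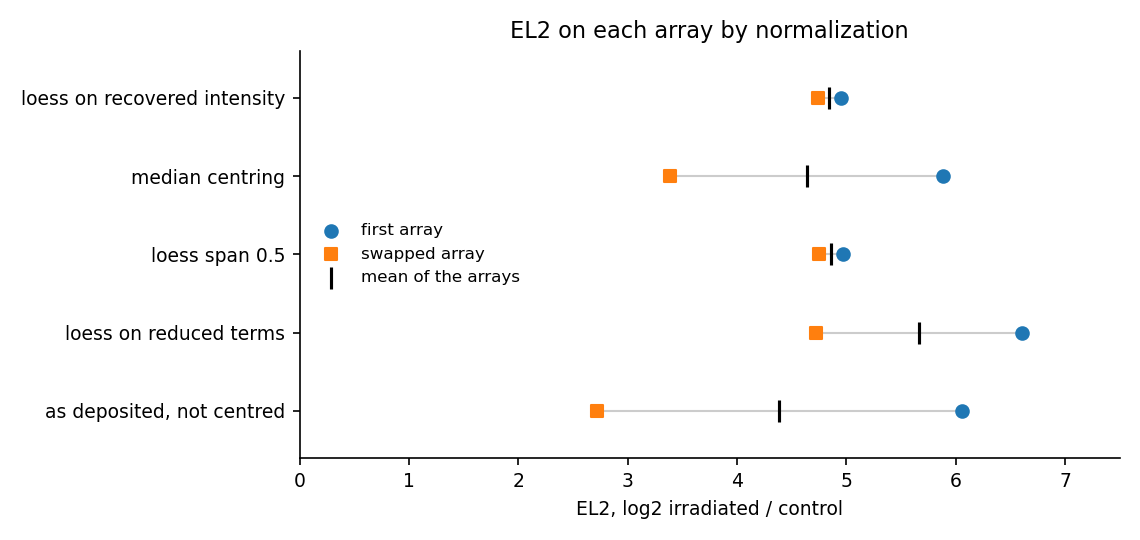
Log2 ratio of irradiated over control for EL2 (horizontal axis) on the first array (blue circles), on the swapped array (orange squares) and as their mean (black bars) under 5 normalizations (rows). The means lie between 4.39 and 5.66, while the distance between the arrays runs from 0.21 with loess on recovered intensity to that between 2.72 and 6.06 with no centring.

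Among all probes EL2 ranked 3rd by the mean of the arrays, 2nd on the first array alone and 10th on the swapped array alone. At least 2-fold on both arrays is used here as the mark of a difference. By it 431 of 22574 probes (1.91%) were higher in irradiated seedlings and 56 (0.248%) were lower. In the brightest decile, where EL2 lay, the shares were 5.09% and 0.62%. Past 8-fold on both arrays there were 30 higher and 0 lower probes, and past 16-fold 7 and 0, with EL2 among the 7. A 1.5-fold mark takes in 3.76% of all probes as higher and 1.79% as lower, and a 3-fold mark 0.828% and 0.0266%. The 2 genes above EL2 were LOC4331157, at 5.29 and 5.75 on the arrays, and LOC4333197, at 4.81 and 4.97. The next below it were LOC4334293, at 4.15 and 5.21, and LOC4324540, at 4.36 and 4.97. None of these genes has a name in the annotation used. The order of EL2, LOC4333197, LOC4334293 and LOC4324540 is not settled, since their means of 4.84, 4.89, 4.68 and 4.67 lie closer together than the arrays of LOC4334293 or LOC4324540.

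**Figure D3:**
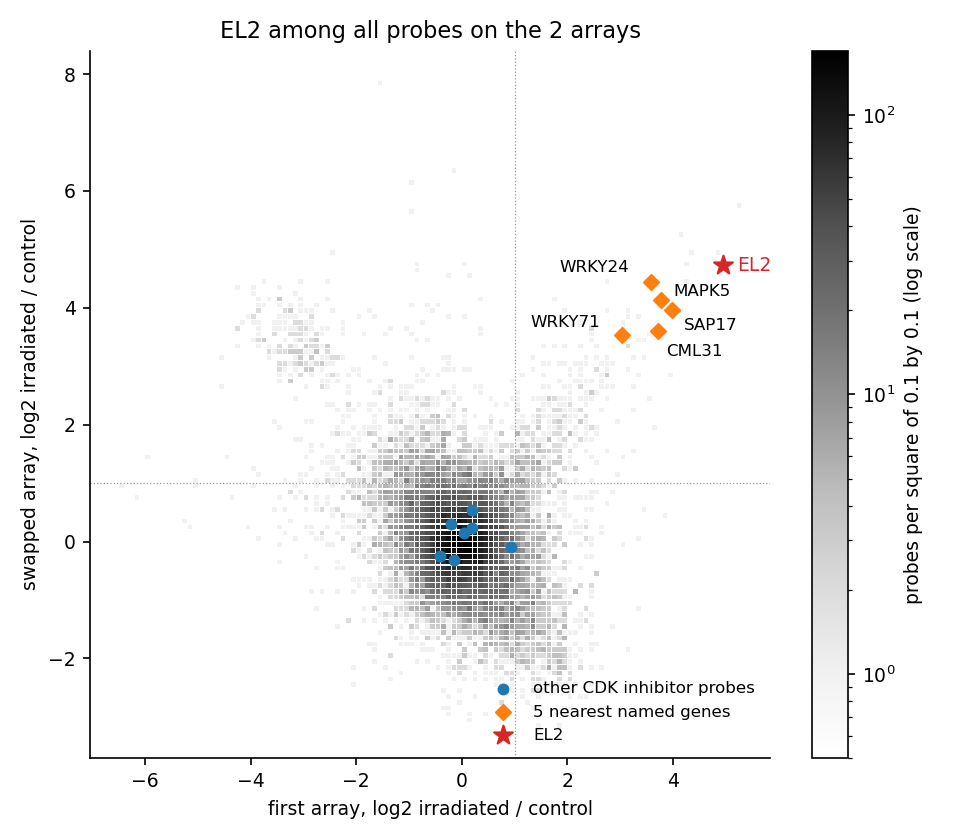
Log2 ratio of irradiated over control on the first array (horizontal axis) against the swapped array (vertical axis), with all probes in grey by their number per square, EL2 as a red star, the 5 nearest named genes as orange diamonds and the 7 other CDK inhibitor probes as blue points. EL2 lies at 4.95 and 4.74, beyond the nearest named genes, and the other CDK inhibitor probes lie around 0; dotted lines mark 2-fold.

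No CDK inhibitor probe other than that of EL2 was past 2-fold on both arrays. The list held 8 probes for 6 genes, and EL2 made up the 1 higher probe (12.5% of the list, beside 1.91% of all probes), a share from which nothing is read, since the gene was chosen for this ratio. The list median without EL2 was 0.09, beside -0.01 over all probes. SMR1, which shares its name with the SIAMESE-related genes of Arabidopsis, stood at 0.03 and 0.15 on the arrays. Uncentred, the SMR1 mean was -0.25, where the median of all probes was -0.29. Its deposited ratios of irradiated to control signal were 79 to 127 and 155 to 136, and its spot was dim, in decile 4.

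The other 6 probes belonged to the KRP family, whose members hold back CDK and cyclin complexes in dividing and differentiating tissue. KRP1 stood at -0.14 and -0.32 on the arrays. The brighter probe of KRP6 stood at -0.41 and -0.24, and its other probe at 0.19 and 0.23. Uncentred, the mean of that other probe was -0.15, where the median of all probes was -0.29. These 3 probes lay in deciles 7 to 9. Over the 10 deciles the dye-following part of the ratio had a robust SD of 0.89 log2 units among the dimmest probes and 0.20 among the brightest. For most probes this part was therefore smaller at brighter spots, but a robust SD gives little weight to extreme probes. In decile 7 Pearson's r between the turned arrays was -0.54 and rho -0.05, so some probes there had a large dye-following part. KRP5 stood at 0.20 and 0.54 in decile 5. The probes of KRP4, also in decile 5, stood at 0.93 and -0.09 and at -0.20 and 0.30. Their arrays disagreed in sign, and their means of 0.42 and 0.05 give no direction. The means of all 7 probes other than EL2 thus ran from -0.32 to 0.42.

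Of the 37 probes of kinases and cyclins, the partners of CDK inhibitors, 29 were within 2-fold on both arrays, 8 were beyond it on at least 1 array, and 4 were beyond it by their mean. Nothing is read from these counts, which have no share of all probes beside them. Among 14 CDK probes for 11 genes, 1 was past 2-fold on both arrays, higher (7.14%, beside 1.91% of all probes). From 1 probe nothing is read about the list. The list median was 0.14, -0.04 with median centring and -0.29 uncentred. The medians of all probes were -0.01, -0.04 and -0.29 under the same settings. The higher one was CDKG-1, of a class of CDKs that act in RNA splicing in Arabidopsis, at 1.12 and 1.07 on the arrays. With median centring it stood at 1.78 and 0.12, past 2-fold on the first array only, and uncentred its swapped array was at -0.55. The lowest was a probe of CDKE-1, a kinase of the Mediator complex of transcription, at -0.31 and -0.40, while a dim probe of the same gene stood at 0.03 and 0.82. CDC2-2, an A-type CDK of the core cell cycle, stood at 1.25 and 0.90 from a dim spot in decile 3, just short of the mark on the swapped array, and was picked out after its values were seen. With loess on the reduced fractions it passed the mark on both arrays. CDC2-1, the other A-type CDK, stood at 0.74 and -0.41 and was picked out in the same way.

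None of 23 cyclin probes for 23 genes was past 2-fold on both arrays. Over all probes 1.91% were higher and 0.248% lower, so nothing is read from a count of 0 in a list of this size. The cyclin median was -0.21. The highest was CYCD4-2, a D-type cyclin of the type that links growth signals to entry into the cycle, at 0.86 and 0.39. The lowest was CYCD3-2, also D-type, at -0.24 and -2.26, values too far apart to give a size, and uncentred it stood at -1.24 and -1.56, past 2-fold lower. The next lowest was CYCB1-1 (LOC4327547), a B-type cyclin of mitosis, at -1.74 and -0.40 from a spot in decile 5. Its mean was -1.07 with the mark passed on the first array only, and it was picked out after its values were seen. Another gene listed under the same name, LOC4326914, stood at -0.36 and -0.07 from a brighter spot in decile 8, and was picked out in the same way. In this list 16 of 23 probes lay among the dimmer 5 deciles. The 3 other cell cycle regulators, RBR2 of the retinoblastoma family and CDC25.1 and CDC25.2, also listed as ACR2 arsenate reductases, had means of -0.04, 0.31 and -0.18. RBR2 was picked out after its values were seen.

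In the replication list 1 of 19 probes for 18 genes was higher (5.26%, beside 1.91% of all probes) and 0 lower, with a median of 0.00. From 1 probe nothing is read about the list. The higher probe was that of PCNA, the sliding clamp of DNA polymerase, at 2.36 and 2.06 on the arrays. Its swapped-array ratio of 17 to 4 has small terms that leave its intensity there uncertain, and with median centring the PCNA mean was 2.93. The lowest was RPA32A, a subunit of the single-strand binding protein RPA, at 0.64 and -2.09 from a spot in the dimmest decile. EL2 and PCNA, an inhibitor of the cell cycle and a part of the replication machinery, were therefore higher in the same RNA. None of 17 DNA damage and repair probes for 10 genes was past 2-fold on both arrays. With 1.91% of all probes higher and 0.248% lower, nothing is read from that count either. The median of the repair list was 0.26, and -0.15 uncentred, where the median of all probes was -0.29. The highest was a probe of PARP1, an enzyme that marks broken DNA, at -0.48 and 1.80, with its other probe at 0.23 and -0.79. The lowest was a dim probe of RAD23, of nucleotide excision repair, at -0.35 and -1.14, while a probe of RAD23 in the brightest decile stood at 0.11 and 0.60. In this list 11 of 17 probes were among the dimmer 5 deciles, and in the replication list 15 of 19.

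**Figure D4:**
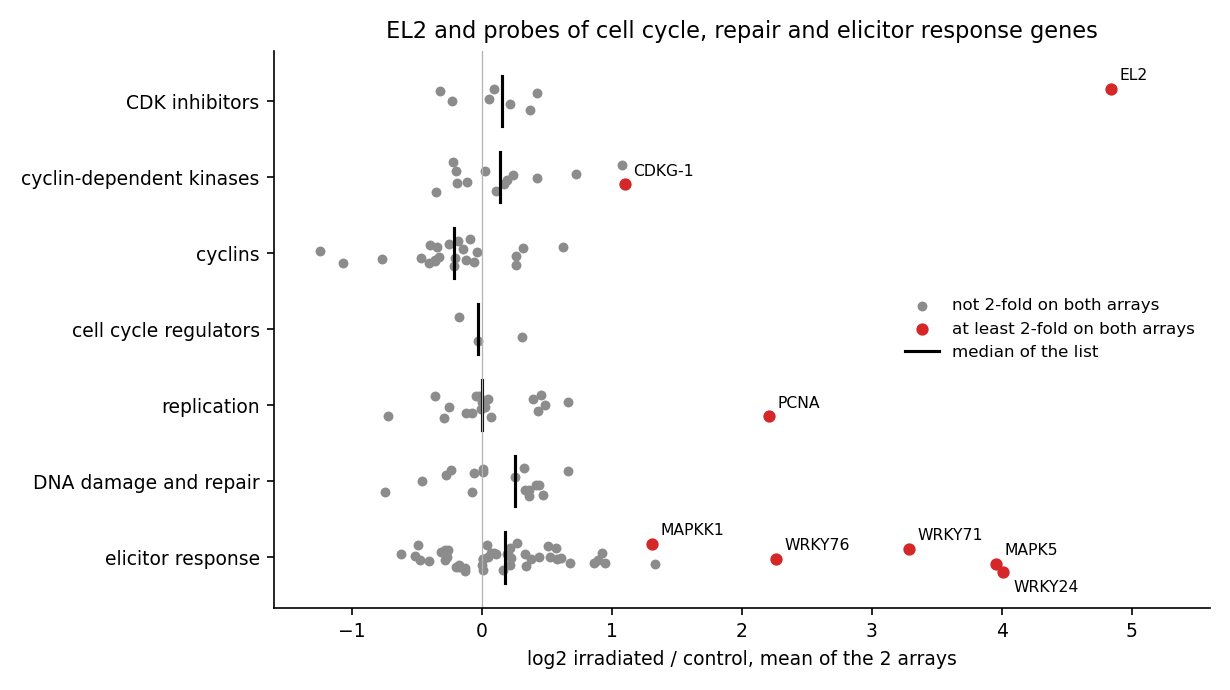
Mean log2 ratio of irradiated over control (horizontal axis) of each probe in 7 gene lists (rows), with red points for probes at least 2-fold on both arrays, grey points for the others and a black bar for each list's median. EL2 at 4.84 is the only red point among 8 CDK inhibitor probes, and the elicitor response row holds 5 red points between 1.31 and 4.01.

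The elicitor response list, called after the setting from which EL2 has its name, was drawn up by gene symbol. It took in families by name, such as WRKY factors, mitogen-activated protein kinases and calcium-dependent protein kinases. Whether each member responds to elicitors was not asked. The list held the largest ratios besides EL2 in these lists. Past 2-fold on both arrays were 5 of its 52 probes (47 genes), all higher (9.62%, beside 1.91% of all probes). The list was chosen with earlier results of these data known, so nothing is read from that share. The list median was 0.18, and -0.04 uncentred, where the median of all probes was -0.29. WRKY24 and WRKY71, transcription factors of the WRKY family, stood at 3.58 and 4.43 and at 3.04 and 3.54 on the arrays. WRKY76, a factor of the same family, stood at 2.28 and 2.24. MAPK5, a mitogen-activated protein kinase of stress signalling, stood at 3.78 and 4.13, from deposited ratios of irradiated to control signal of 7398 to 223 and 7018 to 1641. MAPKK1, a kinase that activates such kinases, stood at 1.35 and 1.26. With median centring MAPKK1 stood at 2.42 and 0.08 and was no longer past 2-fold on both arrays, while CDPK1, a calcium-dependent protein kinase, was at 1.38 and 1.19. Uncentred, 3 of the 5 remained, with MAPKK1 at 2.59 and -0.60 and WRKY76 at 3.04 and 0.53. All 5 lay in deciles 9 and 10, where 117 of 2257 and 115 of 2258 probes were higher, and EL2 was placed in decile 10. The lowest member was a dim probe of CPK6, a calcium-dependent protein kinase, at -0.48 and -0.77, with its other probe at 0.49 and -0.41.

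The genes whose values over the 2 arrays were nearest to those of EL2 were found by the straight-line distance in log2 units, which has only 2 values to go by. Among genes with a name the nearest was SAP17, a stress-associated zinc-finger protein, at 3.97 on either array and a distance of 1.24. It was followed by MAPK5 at 1.32, WRKY24 at 1.40, CML31, a calmodulin-like protein with 3.72 and 3.61, at 1.67, and WRKY71 at 2.25. The same 5 genes came nearest with median centring. No named gene therefore lay within 1 log2 unit of EL2. Among all genes with a probe the nearest were LOC4333197, at a distance of 0.27, LOC4324540 at 0.63, LOC4352357 at 0.72, LOC4325768 at 0.74 and LOC4334293 at 0.92, all without a name.

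The genes beside EL2 along the chromosome did not share its ratio. The direct neighbours, LOC4331331 and LOC4331333, had means of -0.18 and -0.13, and the next genes measured on either side, LOC4331329 and LOC4331334, had means of -0.16 and 0.23. None was past 2-fold, and all 4 lay in deciles 4 to 6, dimmer than EL2.

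Most spots around EL2 on the array were near 0. The 120 other spots in a window of 11 by 11 had median ratios of 0.01 and -0.03 on the arrays, and 4 of them were past 2-fold, all higher. Of the 8 spots that touched EL2, the medians were 0.03 and 0.17. However, 2 of the 8 were higher, JAZ12, a repressor of jasmonate signalling, at 2.21 and 2.09, and LOC4341290 at 1.80 and 1.66, which were picked out after their values were seen. Of all 431 higher probes, 60 touched at least 1 other higher probe and 9 touched at least 2. By the same mark 1.91% of all probes were higher and 0.248% lower, and nothing is read from the small counts around EL2. No expected number of touching pairs was worked out, so nothing is read from the 60 and the 9 either. Whether neighbouring spots affected each other was not tested.

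**Figure D5:**
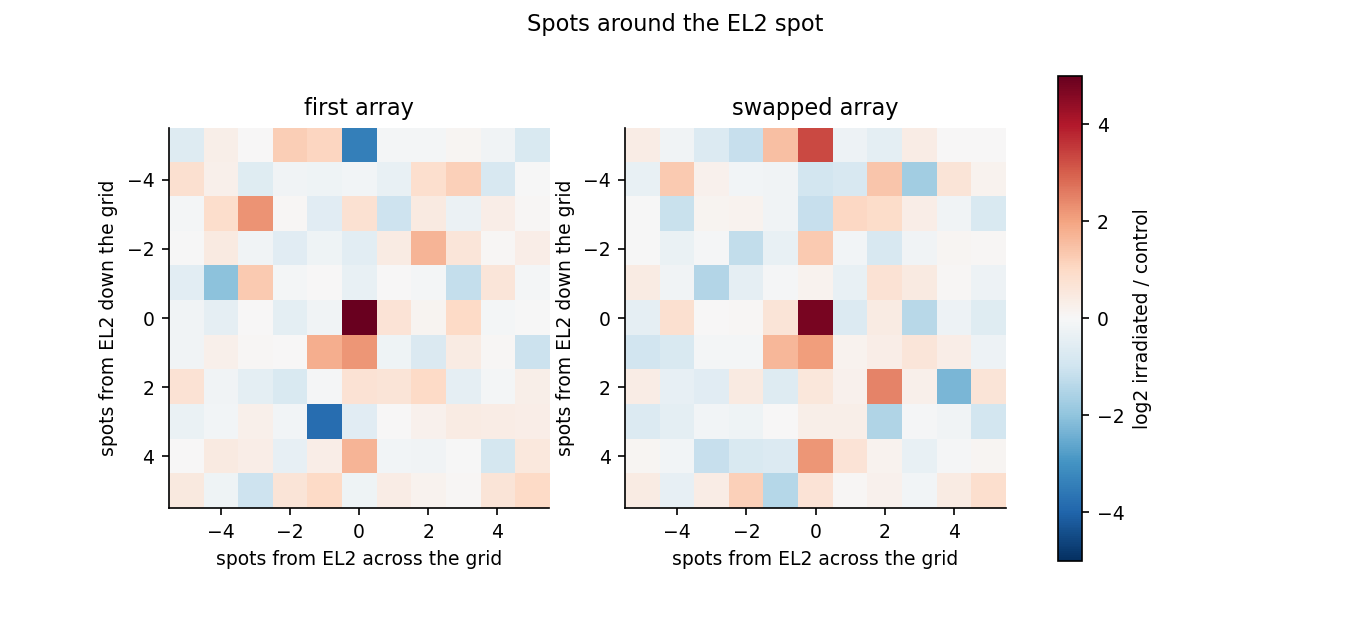
Log2 ratio of irradiated over control (colour, red for higher and blue for lower in irradiated seedlings) of the spots in a window of 11 by 11 around EL2 on each array, with distance from EL2 in spots on both axes. EL2 in the centre is the darkest red on either array, the touching spots JAZ12 and LOC4341290 have means of 2.15 and 1.73, and the other 6 touching spots have means of at most 0.22.

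The RNA was from whole seedlings, so more EL2 transcript per cell and more cells with the transcript cannot be told apart. The 6 photosynthesis probes, which mark green tissue, had a median recovered intensity of 19182, and a median ratio of -0.06 with 0 probes past 2-fold. The 33 probes of transport genes active in roots had a median intensity of 272 and a median ratio of -0.09, with 1 probe higher, of the phosphate transporter PHT1-8, and 1 lower, of the aquaporin TIP4-1. Over all probes 1.91% were higher and 0.248% lower, and nothing is read from the small counts in these lists.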

How the data were processed

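The authors deposited 22575 log10 ratios per array, read on a GenePix scanner per the design text, which names GeneSpring version 4 for normalization. Medians of 0.051 and 0.20 showed no centring. The numerator and any background correction are not stated in those sources. Values were read as log10 of Cy5 over Cy3, and the swapped array was turned. 1 probe lacked a value. Each ratio was taken back to its simplest fraction, and lost common factors up to 59 were restored as a weighted mean of their logarithm, from the chance of shared factors and the other array's intensity. Each array was normalized by loess on this intensity (span 0.3, 3 iterations, statsmodels 0.14.6) and converted to log2. The steps were tested on simulated data whose intensities and trends came from the fit to these arrays. Noise was drawn for each array by itself, so a dye effect of single probes that recurs on both arrays was not simulated. All 17839 probes with 1 gene were matched to RefSeq (ASM3414082v1) for names and neighbours, while 21 had several genes and 4715 were unlisted. The spot numbering was worked out earlier from these same data. Lists were drawn up by gene symbol. Members and lists were chosen with earlier results of these data known. Named genes are the CDK inhibitors, list members past 2-fold, each list's highest and lowest, the 5 genes nearest to EL2, and its neighbours in rank and along the chromosome, with other probes of a named gene where they disagree. RBR2, CDC2-1, CDC2-2, CYCB1-1, LOC4326914, CDPK1, JAZ12, LOC4341290, PHT1-8 and TIP4-1 fall outside this rule and were picked out after their values were seen. Alternatives were median centring, other loess settings, uncentred values, single arrays and other readings of direction.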

Additional observations from a re-analysis of the deposited data

How the results depend on the processing

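With 1 pair of extracts on 2 arrays, spread between seedlings is unknown, and dim probes give coarse ratios. No paired analysis was possible because there was 1 replicate per group. EL2 stayed higher under every normalization tried, and its mean and rank were 4.64 and 3 with median centring, 5.66 and 1 with loess on reduced fractions, 4.39 and 3 uncentred, and 4.86 and 4 with a loess span of 0.5. With a factor of 1 at its first-array spot, an alternative added after the data were seen, they were 5.84 and 1. On the swapped array alone its rank was 10. With Cy3 over Cy5 its mean was -4.84 and its rank 22572, and with no array turned they were 0.10 and 8825. The 431 higher and 56 lower probes became 257 and 27 with median centring, 137 and 54 uncentred, 1757 and 1470 from the first array by itself, 2013 and 1619 from the swapped array by itself, 56 and 431 with Cy3 over Cy5, 530 and 603 with no array turned, 849 and 404 at 1.5-fold, and 187 and 6 at 3-fold. Higher probes made up 88.5% of these calls, and 71.7% uncentred. The 7 higher and 0 lower of 135 list members other than EL2 became 4 and 1 uncentred, 18 and 4 from the first array by itself, 13 and 14 from the swapped array by itself, 0 and 7 with Cy3 over Cy5, and 12 and 1 at 1.5-fold. Their background is the counts just given for the same settings, out of 22574 probes (1.91% higher and 0.248% lower in the main setting). The 135 include the elicitor response list, chosen with earlier results known, so nothing is read from these counts. With Cy3 over Cy5 the means were -4.01 for WRKY24, -3.97 for SAP17, -3.96 for MAPK5, -3.66 for CML31, -3.29 for WRKY71, -2.26 for WRKY76, -2.21 for PCNA, -1.31 for MAPKK1 and -1.10 for CDKG-1. With no array turned they were -0.18 for MAPK5, -0.43 for WRKY24 and -0.25 for WRKY71. Of the 5 nearest named genes, 0 were among the 5 nearest of all genes with a probe, as each of those lay closer. Of 25 named probes other than EL2 and 7 list medians, 1 and 1 changed sign with median centring, 0 and 1 with loess on reduced fractions, 0 and 1 with a span of 0.5, 5 and 5 uncentred, 5 and 1 from the first array and 1 and 1 from the swapped array, 25 and 7 with Cy3 over Cy5, and 16 and 2 with no array turned. Compared with median centring, the uncentred mean of every probe was lower by the same amount, which the medians of the arrays set. The uncentred median of all probes was -0.29. The cause of the other shifts with normalization was not tested.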
